A study of Arabidopsis thaliana with 8 samples.

Results

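The WRKY transcription factor genes described here are 50 genes of Arabidopsis thaliana, chosen by locus tag from a list of the family and found in a count table of 37336 genes. The choice was made with earlier results of these data known. All 50 genes carry a WRKY name in the RefSeq annotation of TAIR10.1, which lists 72 such genes, and the other 22 are described only for contrast. The 50 genes were grouped by the family's usual subgroups, with 11 in subgroup I, 3 in IIa, 7 in IIb, 9 in IIc, 6 in IId, 4 in IIe and 10 in III. When the proteins were translated from the annotated coding sequences, the 11 members of subgroup I held 2 copies of the WRKY motif and the other 39 held 1. The nearest member by protein identity lay in the same subgroup for all 50.

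Rosette leaves of 4 genotypes in the Col-0 background were sequenced, with 2 libraries each: the wild type Col-0, *mips1*, *somi2* and the double mutant *mips1 somi2*. The *mips1* line carries a T-DNA insertion in MIPS1, which encodes the enzyme that makes myo-inositol phosphate, and forms light-dependent lesions on its leaves. The *somi2* line comes from a chemical mutagenesis screen for suppressors of these lesions and carries a single-base deletion, with an early stop codon, in the gene BIG. The deposited labels name this genotype only as big, and the allele is taken from the study's text. According to the labels, all plants spent 1 week on agar medium, 2 weeks on soil in short days of 8 h of light and 5 days in long days of 16 h of light at 21 °C, while the study's methods for these libraries give other lengths for the short and long days. RNA was pooled from several plants, each line is a single mutant line, and no label says that the libraries of a line came from separate cultures, so the p-values measure the spread between libraries, which may be technical.

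WRKY proteins are plant transcription factors that bind the W-box, a short DNA element with the core TTGAC, and many WRKY genes carry W-boxes in their own promoters. In leaves they act downstream of mitogen-activated protein kinases and of salicylic acid, and they set the onset of defence and of senescence. Some members activate these programmes and others restrain them, so a change in the family as a whole does not give a direction of the response.

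Libraries held 50123257 to 104501879 counts, and 23916 genes, all 50 members among them, passed the expression filter. MIPS1 fell from 120 and 152 CPM (counts scaled to library size by TMM) in Col-0 to 5.30 and 6.12 in *mips1*, with 9.85 and 10.8 in the double mutant. BIG reached 113 and 132 CPM in Col-0, 57.2 and 62.1 in *somi2*, 205 and 212 in *mips1*, with 93.4 and 89.9 in the double mutant. Markers of the leaf mesophyll were abundant in every library, and the seed markers CRU3 and SESA1 stayed at or below 0.192 CPM. In bulk leaf RNA, fewer cells of a type and less RNA per cell cannot be told apart. Scaling by library size alone raised the median log2 fold change of all genes by 0.329 for *mips1*, 0.382 for the double mutant and 0.272 for *somi2*, each against Col-0.

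The 300 bases before the annotated start of each gene were searched on both strands for the W-box, spelled TTGACC or TTGACT, with no overlap between the spellings. At least 1 W-box was found in 22 of the 50 members (44.0%) and in 31.6% of the 23775 tested nuclear genes. At least 2 were found in 10 members (20.0%) and in 7.46% of the tested nuclear genes. The following stretches run from 10 bases before the outermost W-box to 10 bases after it, where the window allows, for 8 of these 10 members, leaving out WRKY17 and WRKY32, which changed by less than 1 on the log2 scale in *mips1*. They are shown because these genes are both W-box binding factors and carriers of the element. Each is printed on the coding strand, 5′ to 3′, from RefSeq TAIR10.1, and capitals mark the W-boxes.
WRKY41, chr4:6758894-6759035, plus strand: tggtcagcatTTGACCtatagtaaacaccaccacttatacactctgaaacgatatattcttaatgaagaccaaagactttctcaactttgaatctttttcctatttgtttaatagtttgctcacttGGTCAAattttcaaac
WRKY53, chr4:12394038-12394211, minus strand: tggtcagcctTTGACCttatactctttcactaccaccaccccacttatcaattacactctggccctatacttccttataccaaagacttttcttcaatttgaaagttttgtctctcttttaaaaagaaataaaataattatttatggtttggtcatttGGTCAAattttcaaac
WRKY33, chr2:16107935-16108218, plus strand: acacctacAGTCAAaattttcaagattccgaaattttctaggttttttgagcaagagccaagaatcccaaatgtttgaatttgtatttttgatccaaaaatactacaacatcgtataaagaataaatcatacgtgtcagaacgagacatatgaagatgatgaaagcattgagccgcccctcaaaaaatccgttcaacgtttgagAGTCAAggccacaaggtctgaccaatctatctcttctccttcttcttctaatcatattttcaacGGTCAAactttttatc
WRKY30, chr5:8154756-8154844, minus strand: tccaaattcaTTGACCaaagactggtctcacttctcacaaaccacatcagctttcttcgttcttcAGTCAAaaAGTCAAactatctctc
WRKY62, chr5:352171-352337, minus strand: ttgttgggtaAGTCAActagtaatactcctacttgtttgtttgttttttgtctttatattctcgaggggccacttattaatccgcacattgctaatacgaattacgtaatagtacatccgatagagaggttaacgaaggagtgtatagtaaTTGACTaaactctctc
WRKY45, chr3:327413-327611, minus strand: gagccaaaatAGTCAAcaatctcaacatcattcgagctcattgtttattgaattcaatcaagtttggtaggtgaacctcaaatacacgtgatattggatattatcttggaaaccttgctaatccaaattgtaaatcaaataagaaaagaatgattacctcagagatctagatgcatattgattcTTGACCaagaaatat
WRKY15, chr2:9924745-9924803, plus strand: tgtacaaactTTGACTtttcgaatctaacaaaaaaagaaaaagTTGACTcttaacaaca
WRKY29, chr4:12291582-12291621, plus strand: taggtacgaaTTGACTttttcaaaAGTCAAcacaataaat
The stretches of WRKY41 and WRKY53, which encode proteins with 56.5% identity, share their first 8 bases and the first W-box. They also share the bases from the last W-box to the end. Between the W-boxes they differ in length and in part of their letters. The W-boxes lie 78 and 194 bases before the start of WRKY41 and 71 and 219 bases before that of WRKY53.

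Added up over the 50 genes, the level reached 595 and 598 CPM in Col-0. It was 698 and 675 CPM in *somi2*, 544 and 538 CPM in the double mutant, and 2744 and 2756 CPM in *mips1*. The *mips1* libraries thus stood far above the other 6, which lay close together. In Col-0, 33 and 34 members reached 1 CPM, compared with 48 and 49 in *mips1* and 43 in each library of the double mutant. WRKY70 took the largest share of the summed level in every library, from 10.9% in *mips1 somi2* to 20.2% in Col-0.

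**Figure D1:**
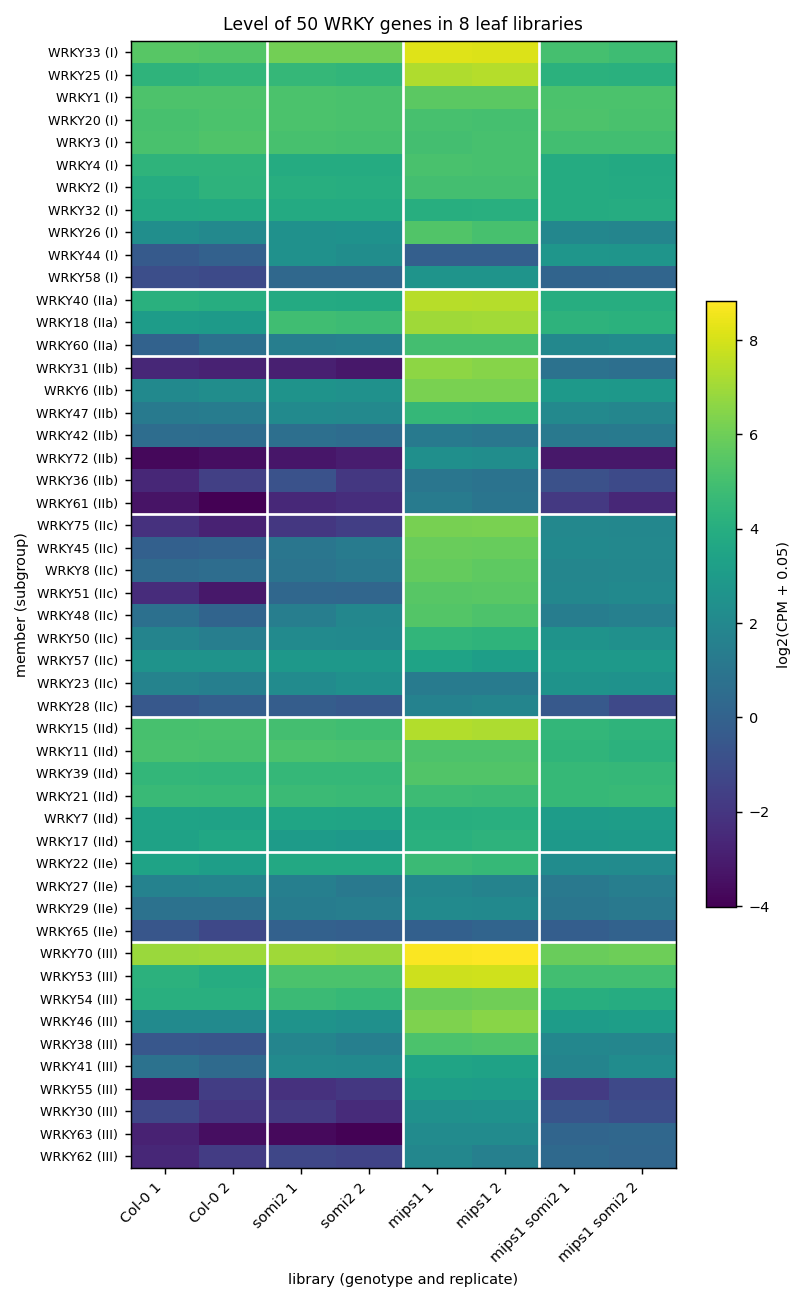
Heat map of the log2(CPM + 0.05) level of the 50 WRKY genes (rows, ordered by subgroup and then by mean level) in the 8 libraries (columns, 2 per genotype). The *mips1* columns are brightest for most rows, and the rows of WRKY1, WRKY3, WRKY20, WRKY21 and WRKY32 have nearly the same colour in all columns.

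Per kilobase of exon, the highest level in Col-0 was that of WRKY70 at 81.8 ± 0.554 CPM per kb (SD, n = 2), followed by WRKY15 at 26.9 ± 0.752, WRKY33 at 21.3 ± 1.22 and WRKY11 at 18.9 ± 0.266 CPM per kb. In *mips1* the order of the levels was WRKY70 at 299 ± 11.9, WRKY53 at 155 ± 0.858, WRKY33 at 141 ± 1.66, WRKY40 at 127 ± 2.48 and WRKY15 at 120 ± 6.06 CPM per kb. Next came WRKY75 at 92.5 ± 1.38 and WRKY25 at 91.9 ± 5.24 CPM per kb, which did not differ beyond their spread. WRKY70 remained the highest in *mips1 somi2* at 41.9 ± 2.33 CPM per kb, followed by WRKY53 at 20.2 ± 0.502.

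The comparison of *mips1* with Col-0 addressed which WRKY genes change in leaves that form lesions. With edgeR's quasi-likelihood test and a threshold of 0.05 on the adjusted p, 43 of the 50 members were higher in *mips1*, where 36.0% of all genes tested were higher, and 2 were lower, where 37.1% of all genes were lower. By at least 1 on the log2 scale, 34 members were higher (17.3% of all genes) and 0 were lower (14.3% of all genes). The median log2 fold change of the members was 2.83, and that of all genes tested was -0.028. Because the members were chosen with earlier results of these data known, these shares do not stand for the whole family. For the tested family genes outside the members the median was 0.95. The members called lower were WRKY3 and WRKY23, at log2 fold changes of -0.17 and -0.31, and neither passed the test with other size factors, with DESeq2 or without either *mips1* library, while scaling by library size alone turned them to 0.16 and 0.02. Leaving out single libraries left 0 or 1 member lower, with 0 when either library of *mips1* or of *mips1 somi2* was left out. Mesophyll markers moved the other way, with 4 of 4 lower in *mips1* and a summed level of 40642 to 43226 CPM in Col-0 and 11903 to 12147 CPM in *mips1*. Both epidermis markers, PDF1 and ATML1, were lower as well, with a summed level of 50 to 63.0 CPM in Col-0 and 21.9 to 24.8 CPM in *mips1*. The part of these markers in the WRKY result was not tested.

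**Figure D2:**
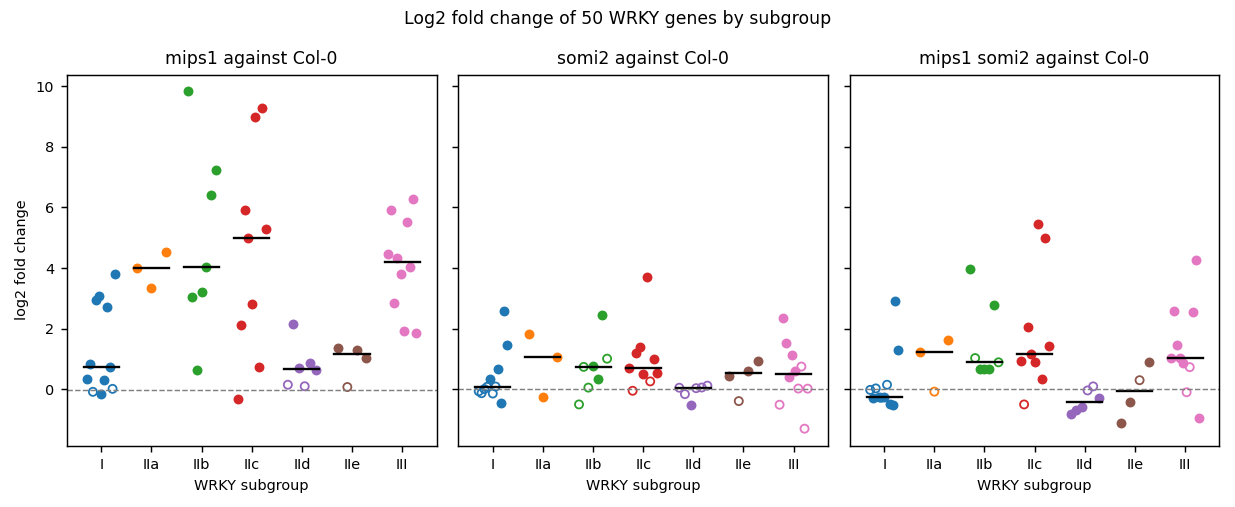
Log2 fold change of each WRKY gene against Col-0 (vertical axis) by subgroup (horizontal axis) in *mips1*, *somi2* and *mips1 somi2*. Filled points passed an adjusted p of 0.05, open points did not, black bars are subgroup medians and the dashed line is the median of all genes tested. In *mips1* the medians of IIa, IIb, IIc and III lie between 3.99 and 5.00, and those of I, IId and IIe between 0.67 and 1.17.

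Subgroup IIc held the highest median, 5.00, and 8 of its 9 members rose in *mips1* (36.0% of all genes tested). WRKY75 (AT5G13080), which promotes leaf senescence and phosphate acquisition, was at 0.167 and 0.0941 CPM in Col-0, 0.207 and 0.272 in *somi2*, 74.1 and 75.7 in *mips1*, with 3.87 and 3.70 in the double mutant. It was nearly silent in Col-0 and *somi2*, high in *mips1* and intermediate in the double mutant, and its log2 fold change in *mips1* was 9.28 (SE 0.14, adjusted p = 4.72e-14). WRKY45 (AT3G01970), its nearest relative and likewise tied to phosphate uptake and senescence, rose from 0.907 and 1.00 CPM in Col-0 to 58.5 and 56.8 in *mips1*, and stood at 1.95 and 2.49 in *somi2* and 4.16 and 3.83 in the double mutant. WRKY51 (AT5G64810), which with WRKY50 (AT5G26170) represses jasmonate responses when salicylic acid is high, was at 0.143 and 0.0588 CPM in Col-0, 1.16 and 1.13 in *somi2*, 44.5 and 46.1 in *mips1*, with 3.77 and 4.11 in the double mutant. All 4 genotypes were apart for WRKY51, and the log2 fold change in *mips1* was 8.99 (SE 0.17, adjusted p = 2.16e-13), or 8.28 without the second Col-0 library. WRKY50 itself rose less, from 3.32 and 2.73 CPM in Col-0 to 21.5 and 20.2 in *mips1* (log2 fold change 2.81, SE 0.11).

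WRKY8 (AT5G46350), a defence gene of the same subgroup, was at 1.27 and 1.42 CPM in Col-0 and 55.4 and 50.4 in *mips1*, a log2 fold change of 5.28 (SE 0.10). Its nearest relative WRKY28 (AT4G18170), which can activate the salicylic acid synthesis gene ICS1, was at 0.669 and 0.847 CPM in Col-0 and 3.14 and 3.54 in *mips1*. WRKY48 (AT5G49520), a negative regulator of basal resistance, went from 1.58 and 1.04 CPM to 42.2 and 37.3, a log2 fold change of 5.00 (SE 0.19). In each of these 3 genes both *mips1* libraries lay above all other libraries. WRKY57 (AT1G69310), known for drought tolerance, changed by only 0.75 on the log2 scale (SE 0.10). WRKY23 (AT2G47260), an auxin-responsive gene of root and embryo patterning, was at 3.25 and 2.85 CPM in Col-0 and 2.46 and 2.42 in *mips1*, but at 4.5 and 5.29 in *somi2* and 5.92 and 5.69 in *mips1 somi2*, so that it was highest in the lines with the *somi2* mutation.

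All 7 members of subgroup IIb rose in *mips1* (36.0% of all genes tested), with a median of 4.05. WRKY31 (AT4G22070) had the largest change of all members, from 0.119 and 0.0941 CPM in Col-0 to 99.6 and 90.1 in *mips1*, and was at 0.0828 and 0.0605 in *somi2* and 1.72 and 1.54 in the double mutant. The log2 fold change in *mips1* was 9.83 (SE 0.14, adjusted p = 3.6e-14), from a Col-0 level that rests on few counts. WRKY6 (AT1G62300), a senescence and pathogen response gene that also represses the phosphate exporter gene PHO1, rose from 4.15 and 4.79 CPM to 74.5 and 75.5 (log2 fold change 4.05, SE 0.08). WRKY42 (AT4G04450), which represses PHO1 as well, moved much less, from 1.43 and 1.38 CPM to 2.26 and 2.06. WRKY47 (AT4G01720) rose from 2.32 and 2.54 CPM to 23.0 and 22.2.

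WRKY72 (AT5G15130), which contributes to basal defence, had 4 counts in both Col-0 libraries together and 891 in those of *mips1*, a ratio of 156 with an exact 95% counting interval from 60.7 to 573. Its level was 0.0239 and 0.0353 CPM in Col-0, 0.0552 and 0.0756 in *somi2*, 5.13 and 4.77 in *mips1*, with 0.0606 and 0.0591 in the double mutant, so that it was near the limit of detection in the other 3 genotypes. WRKY61 (AT1G18860), its nearest relative, had 3 counts in Col-0 and 384 in *mips1*, a ratio of 89.6 with an interval from 30.4 to 436. These intervals cover counting error only. The fitted log2 fold change of WRKY61 was 6.41 (SE 0.45), 7.32 without the first Col-0 library and 5.43 without the second. WRKY36 (AT1G69810), which acts in light signalling, stayed below 2 CPM everywhere, with 0.119 and 0.282 CPM in Col-0 and 1.98 and 1.76 in *mips1*, a log2 fold change of 3.06 (SE 0.38) that became 3.93 without the second Col-0 library.

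Each of the 10 members of subgroup III rose in *mips1* (36.0% of all genes tested), with log2 fold changes from 1.87 to 6.28 and a median of 4.19. WRKY53 (AT4G23810), a regulator of leaf senescence, was at 18.9 and 15 CPM in Col-0, 36.4 and 36.7 in *somi2*, 233 and 235 in *mips1*, with 30 and 31.0 in the double mutant. Its log2 fold change in *mips1* was 3.80 (SE 0.10, adjusted p = 3.58e-12), and the *somi2* lines lay between Col-0 and *mips1*. WRKY46 (AT2G46400), which acts with WRKY53 and WRKY70 (AT3G56400) in basal resistance, went from 4.30 and 4.26 CPM in Col-0 to 80.0 and 92.1 in *mips1*, and was at 5.92 and 5.4 in *somi2* and 8.37 and 9.15 in *mips1 somi2*. WRKY38 (AT5G22570), which with WRKY62 (AT5G01900) restrains basal defence, was at 0.645 and 0.6 CPM in Col-0, 3.44 and 2.83 in *somi2*, 36.6 and 38.8 in *mips1*, with 3.78 and 3.65 in the double mutant. Both *somi2* lines stood clearly above Col-0 for WRKY38 and clearly below *mips1*.

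WRKY70, a node between salicylic acid and jasmonate signalling, was at 120 and 121 CPM in Col-0, 125 and 119 in *somi2*, 427 and 452 in *mips1*, with 59.2 and 64.0 in the double mutant. Its libraries of Col-0 and *somi2* overlapped, and it was raised in *mips1* by 1.87 on the log2 scale (SE 0.07), and lowest in the double mutant. WRKY54 (AT2G40750), its nearest relative, which acts with it in salicylic acid signalling, showed 16.7 and 16.9 CPM in Col-0, 26.7 and 23.9 in *somi2*, 61.5 and 65.0 in *mips1*, with 16.2 and 15.3 in the double mutant. WRKY55 (AT2G40740), known for a role in reactive oxygen and salicylic acid accumulation, lies 919 bases from WRKY54 on chromosome 2 and rose from 0.0478 and 0.259 CPM to 8.67 and 8.39. Its level in Col-0 was 0.153 ± 0.149 CPM (SD, n = 2), and its log2 fold change was 5.52 (SE 0.31) with all libraries and 7.42 without the second Col-0 library.

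WRKY63 (AT1G66600), known from abscisic acid responses, was at 0.0955 and 0.0353 CPM in Col-0, 0.0276 and 0.0151 in *somi2*, 4.46 and 4.45 in *mips1*, with 1.08 and 1.14 in the double mutant. Its log2 fold change in *mips1* was 6.28 (SE 0.28), 6.91 without the first Col-0 library and 5.51 without the second. WRKY62 was also highest in *mips1*, with 0.119 and 0.247 CPM in Col-0, 0.359 and 0.317 in *somi2*, 3.77 and 2.98 in *mips1*, with 1.24 and 1.12 in the double mutant, and its log2 fold change in *mips1* went from 4.05 (SE 0.26) to 4.78 without the second Col-0 library. WRKY30 (AT5G24110), an oxidative stress response gene, went from 0.358 and 0.200 CPM in Col-0 to 5.49 and 5.78 in *mips1*. WRKY41 (AT4G11070), which is known from seed dormancy and defence, went from 1.70 and 1.28 to 11 and 10.2 CPM.

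The 3 members of subgroup IIa, whose proteins bind each other and restrain defence against biotrophic pathogens, all rose in *mips1* (36.0% of all genes tested). WRKY18 (AT4G31800) was at 8.40 and 7.85 CPM in Col-0, 29.3 and 27.5 in *somi2*, 127 and 131 in *mips1*, with 19.5 and 18.4 in the double mutant, with a log2 fold change of 3.99 in *mips1* (SE 0.08, adjusted p = 3.61e-13). WRKY60 (AT2G25000) had 0.955 and 1.61 CPM in Col-0, 2.75 and 2.96 in *somi2*, 31.2 and 32.1 in *mips1*, with 3.83 and 4.49 in the double mutant. For WRKY18 and WRKY60 both *somi2* lines were above Col-0. WRKY40 (AT1G80840) differed from them, with 17.3 and 15.8 CPM in Col-0, 14.1 and 13.9 in *somi2*, 171 and 166 in *mips1*, with 15.5 and 15.8 in the double mutant, so that the rise was seen in *mips1* alone among the 4 genotypes.

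Subgroup I was divided in *mips1*, with 8 of 11 members higher (36.0% of all genes tested), 1 lower (37.1% of all genes) and a median of 0.75. WRKY33 (AT2G38470), the activator of the phytoalexin camalexin pathway and a substrate of MPK3 and MPK6, was at 44.9 and 41.4 CPM in Col-0, 68.7 and 67.2 in *somi2*, 288 and 283 in *mips1*, with 33.3 and 28.8 in the double mutant. Its log2 fold change in *mips1* was 2.73 (SE 0.08, adjusted p = 1.32e-11), and the double mutant held the lowest level. WRKY25 (AT2G30250), which with WRKY26 (AT5G07100) and WRKY33 acts in heat tolerance, rose from 20.0 and 22 CPM to 157 and 170, and WRKY26 rose from 4.97 and 3.99 CPM to 40.0 and 34.1. WRKY58 (AT3G01080), a restraint on systemic acquired resistance, went from 0.478 and 0.412 CPM in Col-0 to 6.12 and 6.07 in *mips1*.

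The rest of subgroup I moved little. WRKY2 (AT5G56270) and WRKY4 (AT1G13960) rose by 0.84 (SE 0.09) and 0.75 (SE 0.07) on the log2 scale, and WRKY1 (AT2G04880) and WRKY32 (AT4G30935) by 0.35 (SE 0.06) and 0.30 (SE 0.07). WRKY20 (AT4G26640) was at 34.4 and 36.0 CPM in Col-0, 35.9 and 35.0 in *somi2*, 34.2 and 32.3 in *mips1*, with 37.1 and 34.9 in the double mutant, and passed the test in none of the 6 comparisons, at adjusted p-values from 0.136 to 0.943. WRKY44 (AT2G37260), known as TTG2 for its role in trichomes and the seed coat, was at 0.716 and 0.941 CPM in Col-0 and 0.867 and 0.856 in *mips1* (adjusted p = 0.96), but at 5.48 and 4.76 in *somi2* and 6.48 and 6.40 in *mips1 somi2*.

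Subgroup IId, whose proteins bind calmodulin, had 4 of 6 members higher in *mips1* (36.0% of all genes tested) and a median of 0.67. WRKY15 (AT2G23320), a regulator of responses to salt and reactive oxygen, stood out with 33.9 and 35.2 CPM in Col-0, 32.0 and 29.9 in *somi2*, 160 and 149 in *mips1*, with 22.3 and 20.4 in the double mutant. Its log2 fold change in *mips1* was 2.16 (SE 0.07, adjusted p = 4.25e-11). WRKY39 (AT3G04670), WRKY17 (AT2G24570) and WRKY7 (AT4G24240) rose by 0.88, 0.69 and 0.65 on the log2 scale. WRKY11 (AT4G31550), which with WRKY17 restrains basal resistance, was at 34.8 and 34.1 CPM in Col-0 and 38.1 and 38.2 in *mips1* and did not pass the test (adjusted p = 0.0664), and WRKY21 (AT2G30590) did not either (adjusted p = 0.177).

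In subgroup IIe, WRKY22 (AT4G01250) and WRKY29 (AT4G23550), which act downstream of a kinase cascade in the response to bacterial flagellin, rose in *mips1* by 1.36 (SE 0.09) and 1.3 (SE 0.13) on the log2 scale. WRKY22 was at 10.7 and 8.87 CPM in Col-0, 13.1 and 13.3 in *somi2*, 26.1 and 23.9 in *mips1*, with 4.63 and 4.45 in the double mutant. WRKY29 was at 1.70 and 1.73 CPM in Col-0, 2.54 and 2.71 in *somi2*, 4.35 and 4.13 in *mips1*, with 2.01 and 2.23 in the double mutant. The double mutant was called lower than Col-0 for WRKY22, while WRKY29 did not pass the test there (0.30, adjusted p = 0.0705). WRKY65 (AT1G29280) rose by 1.04 (SE 0.26) from a level below 1 CPM, a call that was lost without the second Col-0 library (adjusted p = 0.0623), and WRKY27 (AT5G52830) did not pass the test (adjusted p = 0.691).

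**Figure D3:**
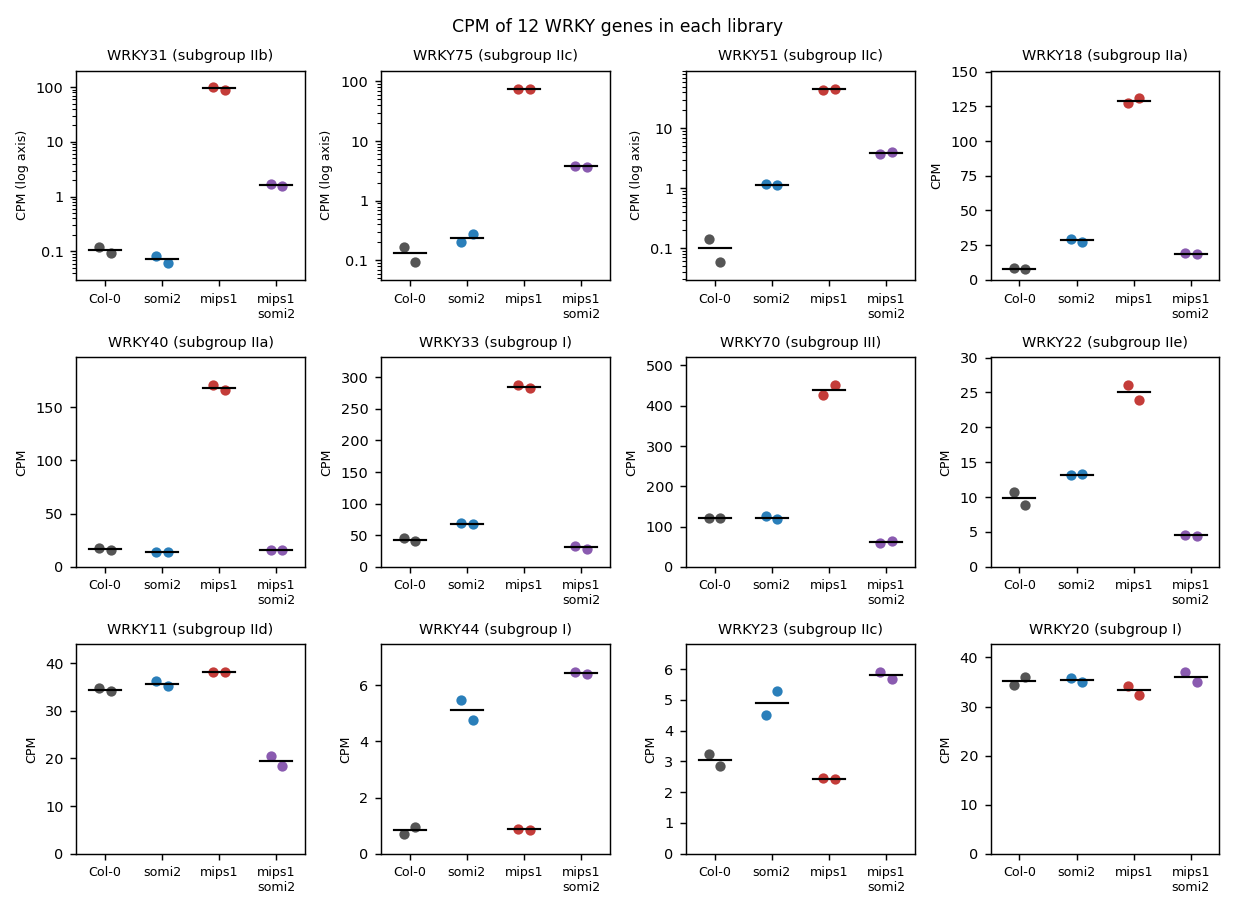
CPM of 12 WRKY genes in each library (points, 2 per genotype) with the mean of the genotype (bars); the panels of WRKY31, WRKY75 and WRKY51 have a log axis and the others start at 0. WRKY22, WRKY33 and WRKY70 are highest in *mips1* and lowest in *mips1 somi2*, WRKY44 and WRKY23 are highest in the lines with the *somi2* mutation, and WRKY20 stays between 32.3 and 37.1 CPM.

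The comparison of *somi2* with Col-0 gave the difference of the *somi2* line from the wild type without the *mips1* mutation. Other mutations that the mutagenesis may have left in this line cannot be told apart from that in BIG. The study reports that T-DNA alleles of BIG also suppressed the lesions of *mips1*, but no second BIG allele was sequenced among these libraries. Of the 50 members, 24 were higher in *somi2*, where 25.6% of all genes tested were higher, and 3 were lower, where 23.6% of all genes were lower. By at least 1 on the log2 scale, 11 were higher (9.03% of all genes) and 0 lower (2.51% of all genes). The median log2 fold change was 0.38 for the members and -0.002 for all genes. Without the first Col-0 library, 6 members were lower in place of 3. WRKY51 had the largest change at 3.69 (SE 0.25, adjusted p = 1.86e-07), followed by WRKY44 at 2.58 (SE 0.15), WRKY61 at 2.44 (SE 0.70) and WRKY38 at 2.35 (SE 0.14). WRKY61 rested on 19 against 3 counts, a ratio of 5.80 with a counting interval from 1.71 to 30.6, and its call was lost when the second library of either Col-0 or *somi2* was left out. WRKY75, at a log2 fold change of 1.00, lost its call without the second library of Col-0 or of *somi2*, with DESeq2, with no count filter and with only the compared groups in the fit. The calls of WRKY6 and WRKY46 were lost without the first *somi2* library, that of WRKY65 without the second Col-0 or first *somi2* library, and that of WRKY26 without the second Col-0 or either *somi2* library. WRKY51 was at 2.98 without the second Col-0 library.

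Beyond these, WRKY18 rose in *somi2* by 1.81 (SE 0.07), WRKY41 by 1.53 (SE 0.17), WRKY58 by 1.47 (SE 0.18), WRKY48 by 1.38 (SE 0.21), WRKY45 by 1.19 (SE 0.14), WRKY53 by 1.12 (SE 0.09) and WRKY60 by 1.07 (SE 0.18) on the log2 scale. Subgroup IIc had 7 of 9 members higher (25.6% of all genes tested), while subgroup IId had 0 of 6 higher and 1 lower (23.6% of all genes). The members that fell were WRKY17 by 0.52, WRKY4 by 0.45 and WRKY40 by 0.24 on the log2 scale. The fall of WRKY40 turned to a value of 0.03 when only library size was scaled, and its call was lost without the first Col-0 or either *somi2* library and with only the compared groups in the fit. The epidermis markers PDF1 and ATML1 had a summed level of 50 to 63.0 CPM in Col-0 and 213 to 218 in *somi2*. Most of this rise was that of PDF1, from 6.26 and 6.35 to 148 and 150 CPM. ATML1 went from 43.7 and 56.6 to 65.5 and 67.7 CPM. The guard cell markers KAT1, MYB60 and FAMA, with 1 higher and 1 lower, had a summed level of 70.9 to 73.4 CPM in Col-0. In *somi2* that sum was 56.7 to 57.7 CPM. The root gene PYK10 had 4.55 to 6.45 CPM in Col-0 and 56.8 to 59.1 in *somi2*. The 4 mesophyll markers were all lower in *somi2*, with a summed level of 27453 to 28085 CPM. The part of these shifts in the *somi2* values, those of WRKY44 among them, was not tested.

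In *mips1 somi2* against Col-0, 25 members were higher (31.1% of all genes tested) and 12 were lower (30.7% of all genes). By at least 1 on the log2 scale, 17 were higher (12.7% of all genes) and 1 was lower (5.01% of all genes). The 17 included WRKY51 at 5.47 (SE 0.20), WRKY75 at 4.98 (SE 0.17), WRKY63 at 4.27 (SE 0.33), WRKY31 at 3.97 (SE 0.20), WRKY44 at 2.92 (SE 0.15), WRKY38 at 2.59 (SE 0.14), WRKY62 at 2.54 (SE 0.29) and WRKY45 at 2.05 (SE 0.13). The member lower by at least 1 was WRKY22 at -1.10 (SE 0.10, adjusted p = 1.2e-06). WRKY70 fell by 0.96 (SE 0.07), WRKY11 by 0.82 (SE 0.07), WRKY15 by 0.69 (SE 0.07) and WRKY33 by 0.47 (SE 0.08) on the log2 scale. With library size alone as the scaling, 4 members were lower in place of 12, and WRKY2, WRKY3 (AT2G03340), WRKY7 and WRKY25 turned to values of 0.10, 0.11, 0.10 and 0.12. WRKY33 did not pass the test under that scaling (adjusted p = 0.312). The calls of WRKY2 and WRKY25 were also lost without the second library of Col-0 or of *mips1 somi2*. That of WRKY2 was lost as well without the first *mips1 somi2* library and with only the compared groups in the fit. Without the second Col-0 library, WRKY51 was at 4.77, WRKY62 at 3.30 and WRKY63 at 3.52, and WRKY63 was at 4.92 without the first.

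By subgroup, 8 of 9 members of IIc, 7 of 10 of III, 5 of 7 of IIb and 2 of 3 of IIa were higher in *mips1 somi2* than in Col-0. Of all genes tested, 31.1% were higher and 30.7% lower in this comparison. The call of WRKY57 in IIc was lost without either library of *mips1 somi2*. That of WRKY30 in III was lost without the second Col-0 or the first *mips1 somi2* library. That of WRKY61 in IIb was lost without the second Col-0 library. Among members of I, 5 of 11 were lower and 2 of 11 higher, and among those of IId, 4 of 6 were lower and 0 of 6 higher. With library size as the only scaling, 0 members of I and 2 of IId, WRKY11 and WRKY15, were still called lower. In subgroup IIe, WRKY22 and WRKY27 were lower and WRKY65 was higher, but the call of WRKY27 (adjusted p = 0.0433) was lost under 9 of 15 alternatives, DESeq2 and the replicate block among them, and that of WRKY65 without the second library of Col-0 or of *mips1 somi2*. The summed level of the mesophyll markers in the double mutant was 21554 to 23300 CPM, between those of *mips1* and *somi2*.

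The comparison of *mips1 somi2* with *somi2* gave the effect of the *mips1* mutation where BIG was already mutated, and shares no library with that of *mips1* and Col-0. Here 13 members were higher (8.46% of all genes tested) and 10 were lower (10.8% of all genes). By at least 1 on the log2 scale, 6 were higher (2.23% of all genes) and 2 were lower (1.35% of all genes). The 6 were WRKY63 at 5.57 (SE 0.38), WRKY31 at 4.47 (SE 0.21), WRKY75 at 3.98 (SE 0.15), WRKY62 at 1.80 (SE 0.25), WRKY51 at 1.78 (SE 0.12) and WRKY30 at 1.53 (SE 0.31). WRKY63 had 166 counts in *mips1 somi2* and 3 in *somi2*, a ratio of 51.1 with a counting interval from 17.2 to 250. The 2 were WRKY22 at -1.54 (SE 0.10, adjusted p = 2.46e-07) and WRKY33 at -1.13 (SE 0.08, adjusted p = 5.18e-07). Without the second *somi2* library or the first *mips1 somi2* library, 8 members were higher in place of 13, and WRKY30 was among those lost. The calls of WRKY42 and WRKY60 were lost without any 1 of the 4 libraries compared, and those of WRKY6 and WRKY50 without either *somi2* library or the first *mips1 somi2* library. That of WRKY25, which was lower, was lost without the first *somi2* or the second *mips1 somi2* library.

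Of the 43 members higher in *mips1* than in Col-0, 13 (30.2%) were also higher in *mips1 somi2* than in *somi2*, and they were all of the 13 that were higher there (100%). These were WRKY6, WRKY8, WRKY30, WRKY31, WRKY42, WRKY45, WRKY46, WRKY50, WRKY51, WRKY60, WRKY62, WRKY63 and WRKY75. Another 9 of the 43 (20.9%), which make up 90.0% of the 10 lower there, went the opposite way: WRKY7, WRKY15, WRKY18, WRKY22, WRKY25, WRKY26, WRKY33, WRKY54 and WRKY70. The remaining 21 (48.8%) did not pass the test in the *somi2* background. Among all genes higher in *mips1* than in Col-0, 16.5% were higher and 10.5% lower in the *somi2* background, and these were 70.0% of all genes higher there and 34.8% of all genes lower there. WRKY11 was lower in the *somi2* background at -0.87 (SE 0.07) and was not called in Col-0.

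**Figure D4:**
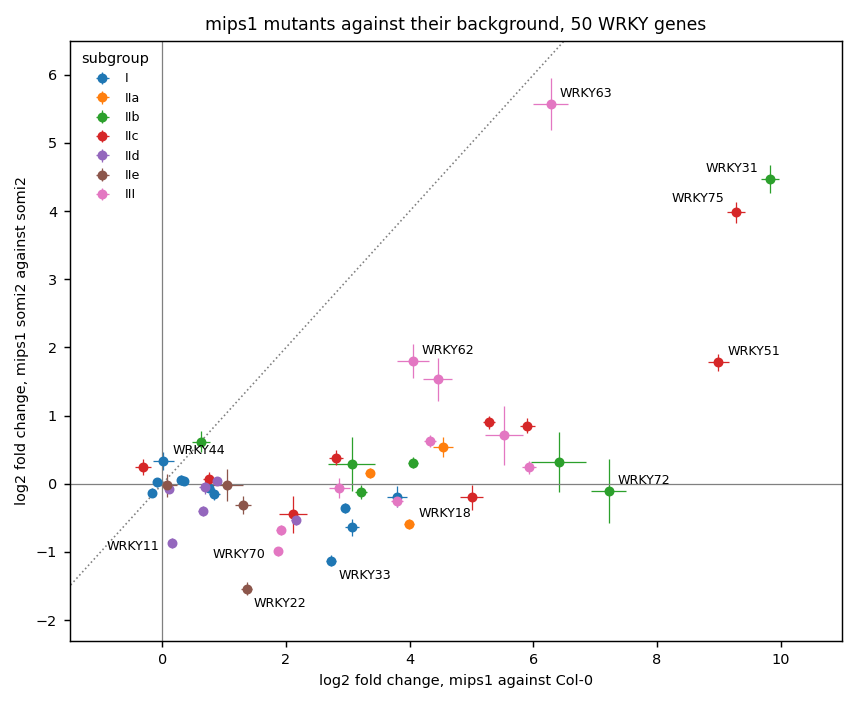
Log2 fold change of *mips1* against Col-0 (horizontal axis) and of *mips1 somi2* against *somi2* (vertical axis) for the 50 WRKY genes, coloured by subgroup, with bars of 1 SE, derived from the F statistic, and a dotted line of equal change. WRKY63 lies near the line of equal change, WRKY31, WRKY75 and WRKY51 lie above 0 and below that line, and WRKY22, WRKY33 and WRKY70 lie below 0 on the vertical axis.

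The interaction, which tests whether the effect of *mips1* differs between the backgrounds, was negative for 42 members (31.2% of all genes tested) and positive for 1 (30.8% of all genes). By at least 1 on the log2 scale, 35 were negative (16.3% of all genes) and 0 positive (12.9% of all genes). The median was -2.81 for the members and 0.019 for all genes. WRKY72 had the most negative value, -7.34 (SE 0.69), followed by WRKY51 at -7.22 (SE 0.24) and WRKY61 at -6.08 (SE 0.74). WRKY23 was the positive member at 0.56 (SE 0.17, adjusted p = 0.0139), a call that was lost without the first *somi2* or the second *mips1* library and with library size as the only scaling. WRKY63 did not pass the test (-0.71, SE 0.90, adjusted p = 0.59), nor did WRKY44 (0.32, SE 0.21, adjusted p = 0.219), WRKY42 (adjusted p = 1), WRKY3, WRKY20, WRKY21 and WRKY27.

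The comparison of *mips1 somi2* with *mips1* gave the difference made by the *somi2* mutation in plants that would otherwise form lesions. Here, too, other mutations from the mutagenesis cannot be told apart from that in BIG. Of the members, 43 were lower in the double mutant (38.9% of all genes tested) and 2 were higher (39.1% of all genes). By at least 1 on the log2 scale, 35 were lower (18.1% of all genes) and 2 higher (17.7% of all genes). The median log2 fold change was -2.49 for the members and 0.014 for all genes. The falls were largest for WRKY72 at -6.33 (SE 0.24), WRKY31 at -5.86 (SE 0.10), WRKY55 at -4.78 (SE 0.28) and WRKY75 at -4.31 (SE 0.09). WRKY40 was at -3.43 (SE 0.07), WRKY26 at -3.35 (SE 0.11), WRKY33 at -3.20 (SE 0.08) and WRKY53 at -2.94 (SE 0.09). The members that were higher were WRKY44 at 2.90 (SE 0.14) and WRKY23 at 1.25 (SE 0.12). Markers moved with them, from 21.9 to 24.8 CPM in *mips1* to 232 to 261 CPM in *mips1 somi2* for the epidermis pair and from 5.70 to 5.79 CPM to 65.6 to 68.2 CPM for PYK10, and 4 of 4 mesophyll markers were higher. Of the epidermis pair, PDF1 went from 1.61 and 1.59 to 180 and 158 CPM, and ATML1 from 20.3 and 23.2 to 80.7 and 74.5 CPM. The guard cell markers, with 2 higher and 1 lower, had a summed level of 55.9 to 59.4 CPM in *mips1* and 55.5 to 58.3 in *mips1 somi2*. The part of these markers in the values of WRKY44 and WRKY23 was not tested. Because this comparison and that with Col-0 share the *mips1* libraries, their values stand side by side and are not set against each other.

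Pairs of close relatives did not always change by the same amount. The protein pair with the highest identity, WRKY11 and WRKY17 at 75.4%, had log2 fold changes in *mips1* of 0.15 (SE 0.07) and 0.69 (SE 0.09). WRKY31 and WRKY42 shared 72.9% of their residues and had log2 fold changes of 9.83 (SE 0.14) and 0.62 (SE 0.15). WRKY3 and WRKY4 shared 72.0%, with -0.17 (SE 0.07) and 0.75 (SE 0.07). In contrast, WRKY54 and WRKY70 at 45.1% identity had 1.91 (SE 0.07) and 1.87 (SE 0.07), and WRKY25 and WRKY26 at 41.7% had 2.96 (SE 0.08) and 3.07 (SE 0.11). The differences within pairs were not tested, and reads with more than 1 alignment were counted, so that the counts of close relatives are less certain than others.

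**Figure D5:**
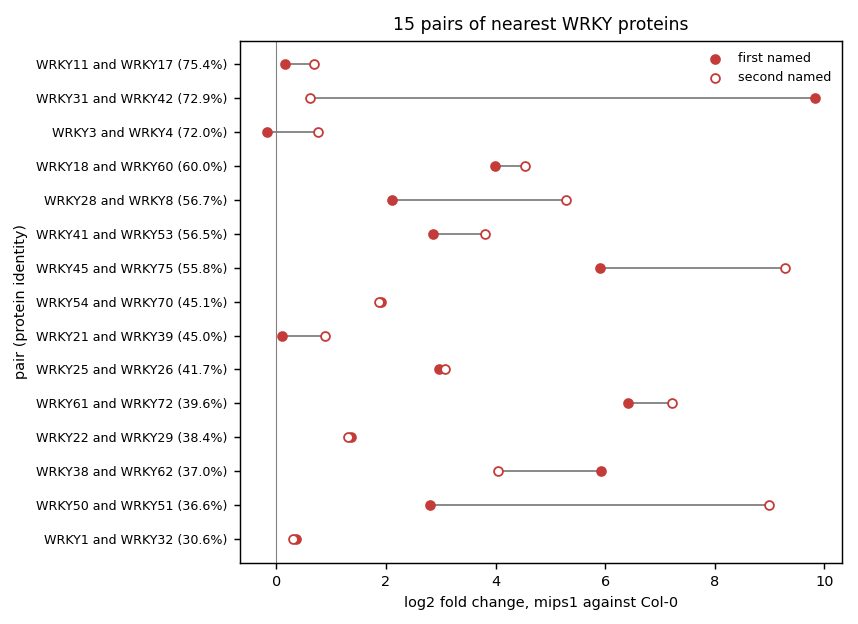
Log2 fold change in *mips1* against Col-0 (horizontal axis) for the 15 pairs of WRKY genes whose proteins are each other's nearest among the 50, ordered by protein identity. The filled point is the gene named first and the open point the gene named second, and the widest gaps are those of WRKY31 and WRKY42 and of WRKY50 and WRKY51.

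Because the counting ignored the strand, reads of a member and of a gene on the opposite strand cannot be told apart where their exons overlap. This touches 41.7% of the exon bases of WRKY41, 20.5% of those of WRKY53, 18.0% of WRKY29, 11.5% of WRKY61 and 7.97% of WRKY1, and 1.13 to 3.85% of WRKY2, WRKY4, WRKY33 and WRKY40. The gene opposite WRKY41, 3xHMG-box1, was at 7.19 and 6.45 CPM in Col-0, 20.3 and 19.8 in *somi2*, 11.8 and 11.5 in *mips1*, with 21.1 and 23.6 in the double mutant. The gene opposite WRKY53, 3xHMG-box2, was at 16.9 and 17.4 CPM in Col-0, 67.4 and 63.6 in *somi2*, 73.6 and 67.9 in *mips1*, with 78.4 and 74.6 in the double mutant. Every mutant line was higher than the wild type for both genes. The log2 fold changes of 3xHMG-box1 were 1.56 for *somi2*, 0.78 for *mips1* and 1.72 for the double mutant. Those of 3xHMG-box2 were 1.93, 2.05 and 2.16. The part of these genes in the values of WRKY41 and WRKY53 was not tested for any of the mutant lines.

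Members with a W-box in the 300 bases before their start had a median log2 fold change in *mips1* of 2.91, and those without had 1.89. For all tested nuclear genes the medians were 0.10 with and -0.08 without a W-box. With at least 2 W-boxes the medians were 2.795 for the members and 0.276 for all tested nuclear genes. These differences were not tested. The element was found in 5 of 10 members of subgroup III, 5 of 9 of IIc, 5 of 11 of I, 4 of 6 of IId, 2 of 7 of IIb, 1 of 4 of IIe and 0 of 3 of IIa. WRKY30 and WRKY33 held 3 each, as printed above, and WRKY31, WRKY51, WRKY70, WRKY18 and WRKY40 held none in this window. A match is a description of the letters and not a bound site.

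Genes that act with WRKY proteins were listed as 8 kinases, 5 partners and 10 targets, of which SAG12 was too low to be tested. These lists, too, were chosen with earlier results of these data known. All 8 kinases of the cascades that phosphorylate or release WRKY proteins were higher in *mips1* (36.0% of all genes tested) and lower in *mips1 somi2* than in *mips1* (38.9% of all genes). MPK3, a kinase of WRKY33, was at 89.6 and 89.0 CPM in Col-0, 116 and 108 in *somi2*, 305 and 319 in *mips1*, with 79.1 and 74.0 in the double mutant, an order like that of WRKY33 itself. MPK4, which holds WRKY33 in a complex in the nucleus, rose by 0.80 (SE 0.06) on the log2 scale in *mips1*. Of the partners, SIB1, which activates WRKY33, was at 16.4 and 17.9 CPM in Col-0, 38.4 and 35.6 in *somi2*, 135 and 142 in *mips1*, with 24.5 and 26.7 in the double mutant, while MKS1, the adaptor between MPK4 and WRKY33, did not pass the test in *mips1* (-0.32, SE 0.13, adjusted p = 0.0523). NPR1, the salicylic acid receptor, rose in *mips1* by 1.40 (SE 0.07). In *mips1 somi2* against Col-0, 3 of the 8 kinases were higher and 3 lower, and 2 of the 5 partners were higher and 1 lower, where 31.1% of all genes tested were higher and 30.7% lower.

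Among the 9 tested targets, 7 were higher in *mips1* (36.0% of all genes tested) and 2 lower (37.1% of all genes). PR1, a marker of salicylic acid signalling, had a log2 fold change of 10.54 (SE 0.14) in *mips1* and 6.39 (SE 0.13) in *mips1 somi2*. PAD3, the last enzyme of camalexin synthesis and a target of WRKY33, was at 0.597 and 0.918 CPM in Col-0, 1.02 and 1.09 in *somi2*, 197 and 228 in *mips1*, with 52.1 and 52.7 in the double mutant. It therefore stayed well above Col-0 in the double mutant, in which WRKY33 was below Col-0. That fall of WRKY33 did not pass the test with library size as the only scaling, and a link between both genes was not tested. CYP71A13, another camalexin enzyme, was also high in the double mutant at 64.5 and 63.9 CPM, compared with 2.77 and 1.71 in Col-0, and was already at 17.2 and 18.5 CPM in *somi2* and at 97.5 and 116 CPM in *mips1*. The flagellin-response kinase gene FRK1, a target of WRKY22 and WRKY29 in the flagellin response, went from 0.310 and 0.153 CPM in Col-0 to 56.0 and 59.3 in *mips1*, with 1.82 and 1.58 in the double mutant. The targets lower in *mips1* were GL2, a trichome regulator linked to WRKY44, at -1.62 (SE 0.17), and PHO1 at -0.45 (SE 0.09). In *mips1 somi2* against Col-0, 8 of the 9 tested targets were higher (31.1% of all genes tested) and 0 lower (30.7% of all genes).

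Of the 22 genes of the family outside the 50, 18 passed the expression filter. In *mips1*, 10 of them were higher (36.0% of all genes tested) and 2 were lower (37.1% of all genes), with a median log2 fold change of 0.95, compared with 2.83 for the 50. In *mips1 somi2* against Col-0, 14 were higher (31.1% of all genes tested) and 0 lower (30.7% of all genes). The difference between both parts of the family was not tested.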

How the data were processed

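RNA from rosette leaves was sequenced as single-end reads from poly(A)-selected libraries. The submitters' processing notes name Trimmomatic, STAR 2.7.0d, featureCounts 1.6.3, DESeq2 and the TAIR10 build. The authors deposited raw counts per gene, which were used here, with an exon length column used for levels per kilobase. The authors' counting ignored the strand and kept reads with several alignments. Other deposited tables hold normalized values and the authors' own comparisons (fold changes and p-values) and were not used, and 0 value columns of the count table were left out. Genes were filtered by filterByExpr, scaled by TMM and fitted in edgeR 4.0.16 (R 4.3.3) with 4 genotypes and 8 libraries, which leaves 4 residual degrees of freedom. P-values from the quasi-likelihood test were adjusted by Benjamini-Hochberg over 23916 genes, at a threshold of 0.05. Scripts were tested on simulated data.

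By total counts alone, without TMM, libraries of 50123257 to 104501879 counts put 3 counts at 0.0287 to 0.0599 CPM. The CPM values printed here are scaled by TMM. On that scale, 3 counts stood at 0.0716 CPM in the first Col-0 library and 0.0353 CPM in the second. Ratios of low counts carry exact 95% intervals. Proteins, promoters and names were read from RefSeq TAIR10.1 with Biopython 1.88, and all 50 members had the same start and end as in the count table. All members could be named, with values per library for those with a mean of at least 1 CPM and a called log2 fold change of at least 1, largest first, and for members needed to complete a pair or subgroup. WRKY36 and WRKY61, which had a lower mean, were described for the size of their change. Kinases, partners, targets and cell type markers came from fixed lists, and some of their genes were chosen to be named after their values were seen. The members and lists were chosen with earlier results of these data known. Alternatives were DESeq2 1.42.0, other scalings and filters, a replicate block, only the compared groups, a minimum fold and leaving out each library.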

Additional observations from a re-analysis of the deposited data

Results flagged for a closer look

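The effect of *mips1* differed between the Col-0 and *somi2* backgrounds, by the interaction term of edgeR's quasi-likelihood test, in 43 members, of which 42 had a lower effect in the *somi2* background and 1 a higher effect. The values that follow are log2 interaction terms. In subgroup I they were -0.31 for WRKY1, -0.99 for WRKY2, -0.81 for WRKY4, -3.30 for WRKY25, -3.71 for WRKY26, -0.25 for WRKY32, -3.85 for WRKY33 and -3.99 for WRKY58. In subgroup IIa they were -4.58 for WRKY18, -3.19 for WRKY40 and -4.0 for WRKY60. In subgroup IIb they were -3.74 for WRKY6, -5.36 for WRKY31, -2.76 for WRKY36, -3.33 for WRKY47, -6.08 for WRKY61 and -7.34 for WRKY72. In subgroup IIc they were -4.38 for WRKY8, 0.56 for WRKY23, -2.56 for WRKY28, -5.04 for WRKY45, -5.20 for WRKY48, -2.42 for WRKY50, -7.22 for WRKY51, -0.69 for WRKY57 and -5.30 for WRKY75. In subgroup IId they were -1.06 for WRKY7, -1.02 for WRKY11, -2.69 for WRKY15, -0.75 for WRKY17 and -0.84 for WRKY39. In subgroup IIe they were -2.90 for WRKY22, -1.61 for WRKY29 and -1.06 for WRKY65. In subgroup III they were -2.91 for WRKY30, -5.69 for WRKY38, -2.92 for WRKY41, -3.70 for WRKY46, -4.06 for WRKY53, -2.60 for WRKY54, -4.81 for WRKY55, -2.25 for WRKY62 and -2.86 for WRKY70. The call of WRKY32 was lost under 8 of 14 alternatives, that of WRKY65 under 5 of 14 and that of WRKY23 under 3 of 14, with DESeq2 among those of WRKY32 and WRKY65. Genotypes with 2 libraries are too small for a search for libraries far from the others.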

How the results depend on the processing

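Of 3374 single-gene values under the alternatives, 3246 kept their direction and their call, 121 kept the direction and lost the call, and 7 changed direction. All 7 changed with library size as the only scaling: WRKY3 (0.16) and WRKY23 (0.02) in *mips1*, WRKY40 (0.03) in *somi2*, and WRKY2 (0.10), WRKY3 (0.11), WRKY7 (0.10) and WRKY25 (0.12) in *mips1 somi2* against Col-0. The count of members lower in *mips1* was 0 in place of 2 with DESeq2, with RLE size factors or library size only, with the filter removed or raised to 10 counts in each library, with the replicate block, in a fit of the compared genotypes alone and at a log2 fold change of at least 1. That minimum fold, which by its construction calls fewer genes, left 11 higher and 0 lower in *somi2*, 1 lower in *mips1 somi2* against Col-0, 6 higher and 2 lower in *mips1 somi2* against *somi2*, and 0 positive interactions. Library size only left 4 lower in *mips1 somi2* against Col-0 and 0 positive interactions, and the minimum of 10 counts in each library, which tests fewer genes, left 7 higher in *mips1 somi2* against *somi2*. Leaving out each library gave 0 to 1 lower in *mips1*, 2 to 6 lower in *somi2*, 8 to 15 higher in *mips1 somi2* against *somi2* and 0 to 1 positive interactions. Where not stated, the cause was not tested. A library left alone in its genotype was assumed to vary like the others. Same-numbered libraries shared only a number. The differences between replicates correlated at -0.218 to 0.211 between pairs of genotypes, over the genes tested. The replicate block changed no other count by over 1.5 times. Genes with few counts in Col-0, such as WRKY61 and WRKY72, are limited by depth.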
